A study of Chamaelirium luteum with 2 samples.

Results

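Scaffold 9 is one of the 22 scaffolds listed for the *Cha. luteum* assembly, 39688115 bp long and without a listed centromere, and its first 40% is poor in called ATAC-seq peaks. All peaks of 2 peak lists on this scaffold were taken and placed at their summits. The stretch from 150001 to 15850000, here called the segment (15.7 Mb), was set against the rest of the scaffold (24.0 Mb). Scaffold 9 carried 1621 of the 39233 peaks of replicate 1 and 1728 of the 41385 peaks of replicate 2. The segment held 96 and 111 of them, and the rest held 1525 and 1617. The lists come from 2 ATAC-seq libraries of nuclei from fresh leaves, about 75000 nuclei each, tagged with the Tn5 transposase TDE1 and read for 151 cycles from either end. No treatment or genotype was compared, and the labels call the libraries replicates 1 and 2 of *Cha. luteum* with the same code. The code in the peak names of replicate 2 differs from that in its label. The study says in general that tissues for sequencing came from several greenhouse plants under like conditions, but not which plants gave these 2 libraries, so an SD here measures the spread between libraries, whether from plants or from handling.

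ATAC-seq reads out open chromatin, because the Tn5 transposase inserts its adapters mainly where DNA is free of nucleosomes. In plants such sites lie mostly at promoters and other regulatory DNA near genes, whereas repeat-rich heterochromatin is packed and mostly inaccessible. The centromeres of *Cha. luteum* are very large and built from satellite arrays, and a scaffold is a piece of a chromosome that need not contain one. Reads that matched several places were removed before peaks were called, so sequence present in several copies can lose its signal. How much of the segment is of that kind was not tested.

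Peak summits were sparse along the whole length of the segment. It had 6.11 summits per Mb in replicate 1 and 7.07 in replicate 2, against 63.6 and 67.4 on the rest, a ratio of 0.101 ± 0.00615 (SD, n = 2 libraries). This ratio is a description, since the segment was chosen by its low number of summits, and the 2 libraries do not overlap between the segment and the rest. Peaks covered 0.222% and 0.251% of the segment, against 2.79% and 2.94% of the rest. The 14 full windows of 1 Mb inside the segment held 1 to 10 summits in replicate 1 and 0 to 14 in replicate 2. The 23 full windows of the rest held 42 to 94 and 45 to 100, so that the fullest window of the segment stayed far under the emptiest of the rest. Within the segment the fullest windows were those from 5000001 to 6000000, with 7 and 14 summits, from 4000001 to 5000000, with 10 and 10, and from 11000001 to 12000000, with 8 and 8. The emptiest was the window from 13000001 to 14000000, with 1 summit and 0, followed by the windows on both sides of it, with 5 and 4 and with 4 and 6.

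**Figure D1:**
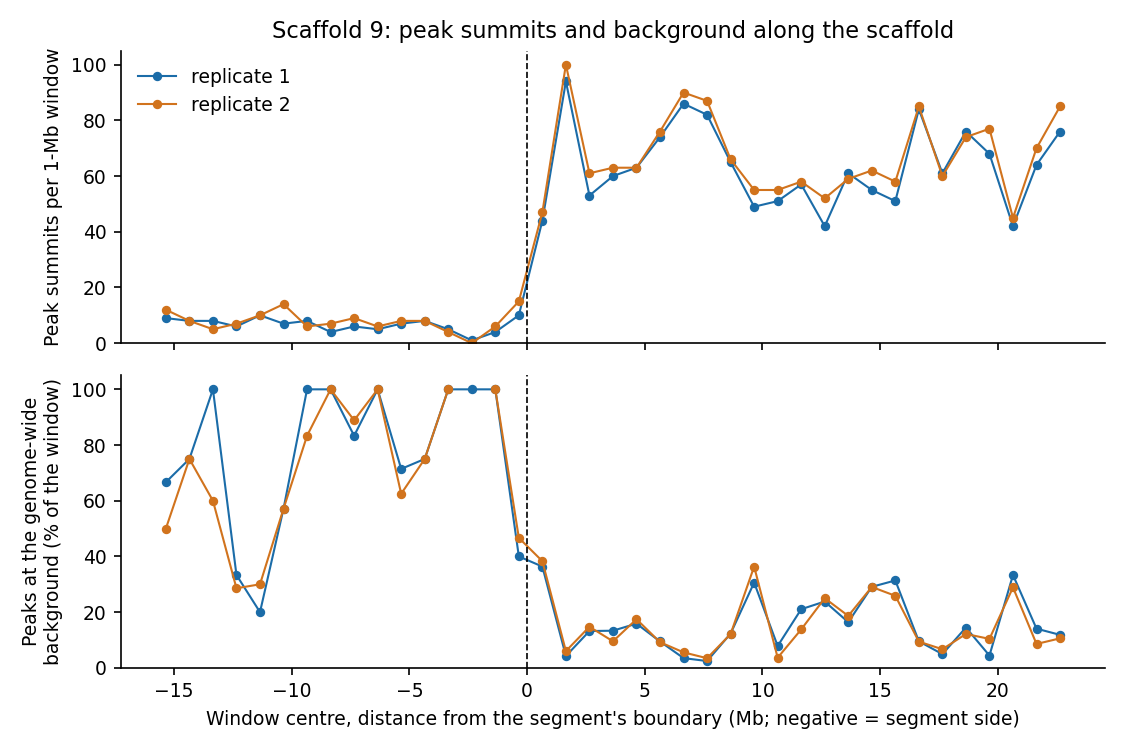
Peak summits per full 1-Mb window of scaffold 9 (top) and the share of each window's peaks whose background equals the genome-wide one (bottom), against the distance of the window's centre from the boundary of the segment. Blue and orange lines are replicates 1 and 2. The first window and the one at the boundary span both parts; windows wholly in the segment held at most 14 summits, and those wholly in the rest at least 42.

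The segment did not reach the very end of the scaffold. The first 150 kb, which belong to the rest, held 3 summits in replicate 1 and 6 in replicate 2, a density of 20 and 40 summits per Mb between that of the segment and that of the longer part. The strongest of these peaks, from 85544 to 85928 in replicate 1, had 70 fragments stacked at its summit, and its partner in replicate 2 had 77, with summits 1 bp apart. The next peak inward was the first of the segment, at 282597 in replicate 1 and 282405 in replicate 2. With so few peaks, the first 150 kb were not compared further.

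At short range the spacing of neighbouring summits differed little between the segment and the rest in replicate 1, and more in replicate 2. At long range it differed strongly in both. The median distance between neighbouring summits was 68.2 kb in replicate 1 and 53.5 kb in replicate 2 in the segment, against 9.35 kb and 8.53 kb on the rest, a ratio of 6.79 ± 0.727 (SD, n = 2). The lower quartile, in contrast, was 4.21 and 5.90 kb in the segment and 3.87 and 3.45 kb on the rest. Distances of at most 5 kb made up 27.4% and 24.5% of those in the segment, against 30.1% and 31.9% on the rest. Distances over 100 kb made up 42.1% and 40.9% in the segment, but 0.788% and 0.743% on the rest. Long distances come with few summits, by which the segment was chosen, so these medians and shares are no separate result. The spacing was also more uneven: the coefficient of variation of the distances was 1.46 and 1.65 in the segment, against 1.25 and 1.28 on the rest. From points taken every 10 kb, the nearest summit lay at a median of 83.4 and 68.7 kb in the segment and of 5.93 and 5.54 kb on the rest.

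**Figure D2:**
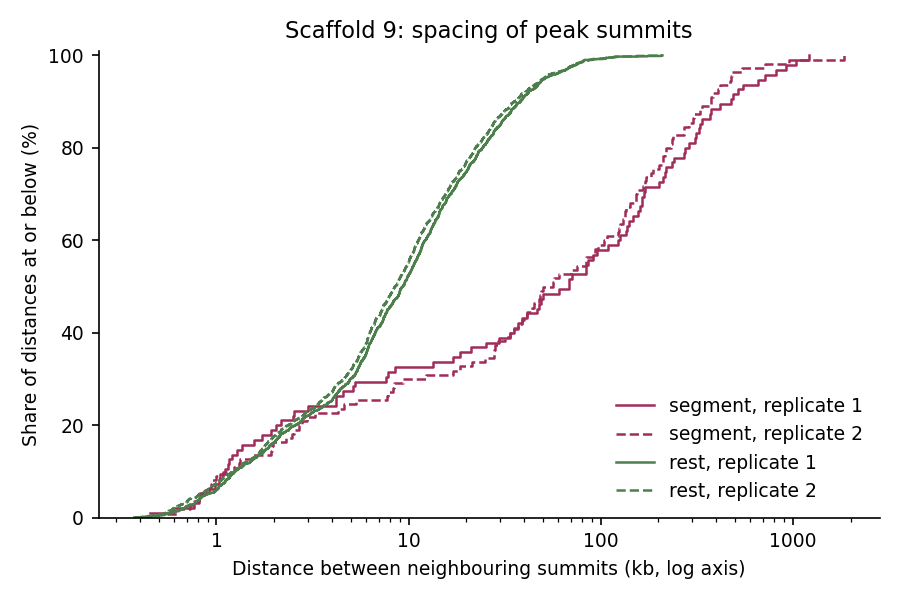
Cumulative share of the distances between neighbouring summits of a library (log axis, kb) in the segment and on the rest of scaffold 9. Solid lines are replicate 1 and dashed lines replicate 2. The curves lie near each other up to a few kb, less so in replicate 2, and part beyond. The medians are 68.2 and 53.5 kb in the segment and 9.35 and 8.53 kb on the rest.

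Most of the segment consisted of long stretches in which neither library had a peak. There were 49 such stretches over 100 kb, together 13.7 Mb or 87.1% of the segment, whereas the rest had 9, together 1.24 Mb or 5.15% of its length. Stretches over 300 kb numbered 14 in the segment and 0 on the rest. After the longest, of 1.04 Mb (13364186 to 14404169), came one of 0.955 Mb (4120314 to 5075188) and one of 0.814 Mb (12550435 to 13363957). The first and the last of these are parted by a single peak of replicate 1 that replicate 2 lacked, and together they make up the emptiest part of the scaffold. The longest stretch of the rest was 209 kb, from 29253510 to 29462552. Of 157 windows of 100 kb in the segment, 101 had no summit in replicate 1 and 92 had none in replicate 2, against 4 and 4 of 239 windows on the rest. These lengths and counts describe the same low density by which the segment was chosen.

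The libraries placed their few summits largely in the same windows. Both had a summit in 50 of the 157 windows of the segment, only replicate 1 in 6, only replicate 2 in 15, and neither in 86. The numbers per window had a Pearson correlation of 0.843 and a Spearman correlation of 0.771 over the 157 windows, which is a description, since both libraries share the sequence of each window and windows are not replicates.

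Peaks of the segment kept close company about as often as those of the rest, although summits were far sparser there. The densities were 6.11 and 7.07 summits per Mb, against 63.6 and 67.4, so like shares do not mean like clustering for the density. The share that each density alone would give was not computed. Another summit of the same library lay within 2 kb of 34 of the 96 peaks of replicate 1, or 35.4% (Wilson 95% interval 26.6 to 45.4%), and of 34 of the 111 of replicate 2, or 30.6% (22.8 to 39.7%). On the rest the shares were 30.4% (28.2 to 32.8%) and 32.9% (30.7 to 35.2%), and over all peaks of the series 30.04% and 31.8%. The difference was 4.99 percentage points in replicate 1 and -2.27 in replicate 2, so it had no common direction. It was positive in both libraries under 3 other choices. It was 3.04 and 2.83 points for neighbours within 1 kb, 5.49 and 3.32 with a stricter -log10 q of 5, and 4.35 and 6.86 among shared peaks. For neighbours within 5 kb it was negative in both libraries, at -2.39 and -11.1 points. With only peaks of at least 30 fragments, a limit chosen after the values were seen, it was -16.2 and -12.1. All such intervals cover counting error only and take peaks as independent, which neighbouring peaks are not. At longer range the segment fell behind. Within 20 kb, 58.3% and 50.5% of the peaks of the segment had another summit, against 93.0% and 94.7% on the rest. Such neighbours are rarer where summits are few, and the segment was chosen for that, so this is no separate result.

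Small islands of peaks stood in the segment, all but the largest under 20 kb across. An island was a run of at least 3 summits of 1 library with no distance over 20 kb. Replicate 1 had 6 islands with 24 summits, 25% of its peaks in the segment, and replicate 2 had 10 with 36 summits, or 32.4%. The islands spanned 94.7 kb and 122 kb in total, and without them the density of the segment was 4.59 and 4.78 summits per Mb. Islands of both libraries coincided at 5 places. The other 6, which only 1 library reached, had 3 summits each, and the other library had 1 or 2 summits inside each. From peaks shared between the libraries alone, the mean number of islands was 4, against 8 ± 2.83 from all peaks (SD, n = 2).

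The largest island ran from 4027208 to 4083160, over 56.0 kb, and held 8 summits in replicate 1 and 9 in replicate 2. All 8 peaks of replicate 1 and 8 of the 9 of replicate 2 overlapped a peak of the other library, as did 82.2% and 77.9% of all peaks of the series in these libraries. Its strongest summits were at 4027239, with 79 fragments in replicate 1 and 109 in the partner peak of replicate 2, and at 4040592, with 95 and 119. The next peaks inward, with summits at 4049081 and 4051573, had 74 and 69 fragments in replicate 1 and 68 and 61 in replicate 2. Farther along, from 4059181 to 4083298, 4 peaks in each library had only 18 to 22 fragments, so the island had a strong and a weak flank. The background, the number of fragments that MACS models for the surroundings of a peak, reached 12.2 fragments in replicate 1 and 13.7 in replicate 2, the highest of the whole segment. A second island lay nearby, from 3993137 to 4001908, with 4 and 3 summits of up to 81 and 97 fragments, and another from 3905524 to 3909162, with 3 and 3 summits of at most 20 and 21 fragments. The empty stretch of 0.955 Mb began a short way beyond this group, toward the boundary. The islands from 10741115 to 10760010 and from 11403646 to 11411216 had 3 summits in each library, all of them shared, with maxima of 55 and 67 fragments in the first and 78 and 74 in the second.

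Single peaks of the segment came near the most enriched ones of the rest in fold, though not in fragments. Fold enrichment divides the fragments at the summit by the background, each plus 1. The peak with the largest value in replicate 1 lay from 6156078 to 6156537, with 82 fragments over a background of 3.38, a fold of 19.0, and its partner in replicate 2 had 76 fragments and a fold of 18.4. In replicate 2 the largest fold, 19.4 with 80 fragments, was that of the peak from 6072035 to 6072386, which had 50 fragments and a fold of 11.6 in replicate 1. The peak from 5480839 to 5481249 in replicate 2 had 75 fragments and a fold of 17.7, and its partner in replicate 1 had 50 and 11.6. Next in replicate 1 came the peaks from 11408028 to 11408414, with 78 fragments and a fold of 12.8, and from 4027083 to 4027448, with 79 and 12.1. On the rest of the scaffold the largest folds were 22.0 and 23.7, at 1 and the same peak (34235171 to 34235852 in replicate 1), but there 313 and 369 fragments stood over a background of 13.3 and 14.6. Folds of similar size thus came from far fewer fragments in the segment.

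The widest peaks of the segment were few. Widths of at least 1 kb were reached by 4 peaks in replicate 1 and 3 in replicate 2, or 4.17% and 2.70%, against 2.49% and 2.41% on the rest. The widest ran from 8213368 to 8215148, with 1781 bp in replicate 1 and 1623 bp in replicate 2, and had only 33 and 32 fragments at its summit. The peak from 1157451 to 1158499 had 1049 and 1031 bp with 34 and 28 fragments. That from 6950887 to 6951937 in replicate 2 had 1051 bp and 63 fragments, and its partner in replicate 1 had 845 bp and 50. That from 9076849 to 9077881 in replicate 1 had 1033 bp and 23 fragments, and its partner in replicate 2 had 622 bp and 18.

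Typical peaks of the segment were narrower and had fewer fragments than those of the rest. The median width was 275.5 bp in replicate 1 and 278 bp in replicate 2, against 381 and 384 bp, a difference of -106 ± 0.354 bp (SD, n = 2). The quartiles were 220 and 414 bp in the segment and 260 and 555 bp on the rest in replicate 1. The number of fragments at the summit, solved from the deposited fold enrichment and p-value, had medians of 22 and 21 in the segment and 32 and 34 on the rest, a difference of -11.5 ± 2.12. The maxima were 95 and 119 fragments in the segment and 313 and 369 on the rest. Both differences had the same direction in both libraries and were larger than the spread between them. An exact sign-flip test over 2 libraries cannot go below a two-sided p of 0.5, so none was made.

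**Figure D3:**
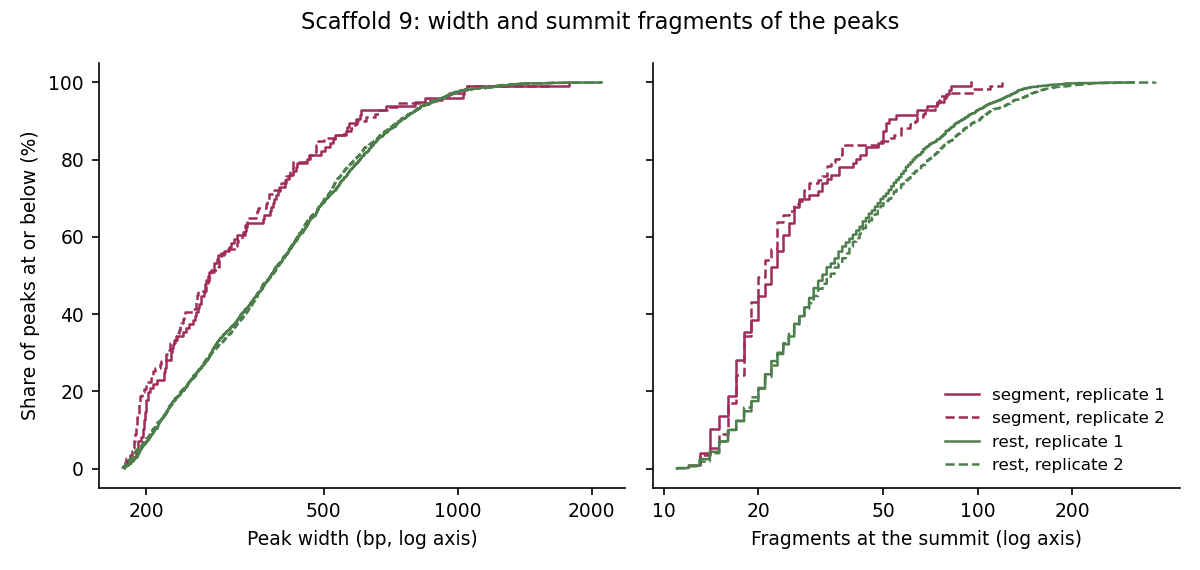
Cumulative share of peaks by width (left, bp) and by fragments at the summit (right), both on log axes, in the segment and on the rest of scaffold 9. Solid lines are replicate 1 and dashed lines replicate 2. The curves of the segment lie left of those of the rest, with median widths of 275.5 and 278 bp against 381 and 384 bp.

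The shortage of peaks was deepest among the strong ones. Per Mb, peaks of 41 or more fragments were 0.0460 ± 0.00680 times as frequent in the segment as on the rest (SD, n = 2), and those of 26 to 40 fragments 0.0661 ± 0.0129 times. For peaks of 16 to 25 fragments the ratio was 0.197 ± 0.0281, and for those of 11 to 15 it was 0.160 ± 0.0344. Peaks of 41 or more fragments numbered 20 and 18 in the segment, against 601 and 667. The number of fragments a peak needs to be listed rises with the background: the fewest among all listed peaks were 11 and 11 at the genome-wide background and 23 and 23 where the background was 9.5 to 10.5 fragments. A peak of 11 to 22 fragments could thus be listed at the genome-wide background, but none was listed at that higher background. With only peaks of at least 30 fragments, the density ratio was 0.0491, the ratio of the median distances 15.2 and the difference of the median fragments 0.5.

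The background was low around most peaks of the segment. MACS sets for each peak a background that is at least the genome-wide one, 3.38 fragments in replicate 1 and 3.18 in replicate 2, and higher where more reads lie nearby. This lowest value is here called the floor. At the genome-wide background stood 74 of 96 peaks of the segment in replicate 1, or 77.1% (Wilson 95% interval 67.7 to 84.4%), and 80 of 111 in replicate 2, or 72.1% (63.1 to 79.6%). On the rest the shares were 13.8% and 13.7%, close to the 14.7% and 14.2% of all peaks of the series. The median background was thus the floor itself in the segment and 5.72 and 5.50 fragments on the rest. Among the full windows of the segment, the lowest share in replicate 1 was 20%, from 4000001 to 5000000, where replicate 2 had 30%. In replicate 2 it was 28.6%, from 3000001 to 4000000, where replicate 1 had 33.3%, and these windows hold the 3 islands near 4 Mb. The median fold enrichment was 5.02 and 4.84 in the segment, against 4.90 and 5.21 on the rest, a difference of -0.120 ± 0.343 that lay within the spread between the libraries. With at least 30 fragments, the difference of the median folds was 2.63 ± 0.537.

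Peaks of the segment at and above the floor differed in the same way in both libraries. The 22 and 31 peaks above the floor had a median width of 491.5 and 397 bp and a median of 37 and 32 fragments. The 74 and 80 at the floor had 259.5 and 256.5 bp and 20 and 19 fragments. On the rest, peaks above the floor had 404 and 404.5 bp and 37 and 39 fragments, and those at the floor 288 and 284 bp and 19 and 19 fragments. At the floor the median fragments of the segment and the rest were thus nearly equal in both libraries, while above it they were equal in replicate 1 and lower in the segment in replicate 2. Per Mb, peaks at the floor numbered 4.71 and 5.10 in the segment and 8.75 and 9.21 on the rest, while those above it numbered 1.40 and 1.97, against 54.8 and 58.2.

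The libraries shared somewhat smaller parts of their peaks in the segment than on the rest, with overlapping intervals. In replicate 1, 78 of 96 peaks overlapped a peak of the other library by at least 1 bp, or 81.3% (Wilson 95% interval 72.3 to 87.8%), against 84.4% (82.5 to 86.1%) on the rest and 82.2% of all its peaks. In replicate 2, 79 of 111 did, or 71.2% (62.1 to 78.8%), against 79.3% (77.2 to 81.2%) on the rest and 77.9% of all its peaks. The difference was -5.63 ± 3.51 percentage points (SD, n = 2), and it was -13.0 where a stricter -log10 q of 5 was asked of each peak. Merged over both libraries, the segment had 128 accessible regions, of which 78 were in both, 18 only in replicate 1 and 32 only in replicate 2. In both libraries lay 60.9% of the merged regions of the segment and 69.0% of the 1849 of the rest. The summits of overlapping peaks were a median of 31 bp apart in the segment and 39 bp on the rest, in each library.

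Within each background class the shares themselves had the other order, but they are given without intervals. The segment had 74 and 80 peaks at the floor and only 22 and 31 above it. At the floor, 77.0% and 65% of the peaks of the segment were shared, against 64.3% and 61.5% on the rest. Above it, 95.5% and 87.1% were shared in the segment, against 87.6% and 82.1% on the rest. The segment had a larger part of its peaks at the floor, 77.1% and 72.1%, against 13.8% and 13.7%. Whether this accounts for its lower share over all peaks was not tested.

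Peaks with similar numbers of fragments were shared alike in most classes. All peaks of 41 or more fragments in the segment, 20 and 18, were shared, and 99.3% and 99.3% of those on the rest. At 26 to 40 fragments the shares were 93.3% (70.2 to 98.8%) and 78.9% (56.7 to 91.5%) in the segment, against 92.0% (89.0 to 94.3%) and 85.5% (81.6 to 88.7%) on the rest. At 16 to 25 they were 68.8% (54.7 to 80.1%) and 64.1% (51.8 to 74.7%), against 67.6% (63.0 to 72.0%) and 57.9% (53.3 to 62.3%). Only among the weakest peaks, with 11 to 15 fragments, were the values far apart. There 11 of 13 and 5 of 10 peaks of the segment were shared, or 84.6% (57.8 to 95.7%) and 50% (23.7 to 76.3%), against 37.0% (28.5 to 46.4%) and 25.7% (18.5 to 34.4%). The unshared peaks of the segment were weak, with medians of 17 and 18 fragments and at most 32 and 36.

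**Figure D4:**
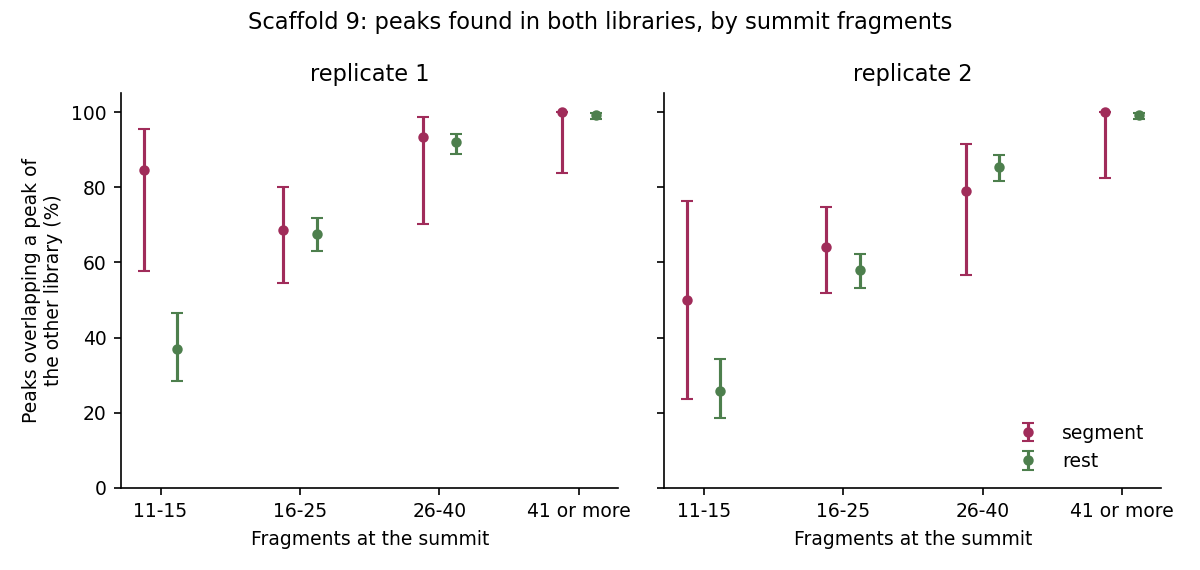
Share of peaks (percent) also found in the other library, with an overlap of 1 bp or more, by class of fragments at the summit, in replicate 1 (left) and replicate 2 (right). Points are shares for the segment and the rest of scaffold 9, and bars are Wilson 95% intervals. All peaks of the segment with 41 or more fragments were shared, and the classes from 16 fragments up have overlapping intervals.

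At the inner boundary the number of summits rose in more than 1 stage. The libraries placed the best single change alike in the long search, but not in one close to the boundary. Over the scaffold from 150001 on, the single change of density with the highest Poisson likelihood lay at 15870000 in both libraries, on a grid of 10 kb. Positions from 15800000 to 15870000 were within 2 log-likelihood units. The segment had been placed with these same peaks, so this search could not test its edge independently. The 2-unit range also takes summits as independent. In the segment the variance of summits per 100-kb window was 1.94 and 1.85 times the mean. The last peak of the segment had its summit at 15816908 in replicate 1, with 24 fragments, and at 15816951 in replicate 2, with 19. The one before it lay at 15582712 in replicate 1 and at 15585273 in replicate 2, 267 and 265 kb inside. Beyond the boundary, the first summits were at 15874874 and 15875542 in replicate 1, with 20 and 40 fragments, and at 15874898 and 15875581 in replicate 2, with 31 and 63. In replicate 2 the one at 15585273 was the last of an island of 3 summits that began at 15579474, with 16 to 21 fragments. On the outer side the first summits were a close pair in both libraries.

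Outside the boundary the density stayed at an intermediate level for 0.8 Mb and then overshot. In the 2 Mb inside the boundary there were 3.5 and 6.5 summits per Mb. In the 0.8 Mb outside it there were 32.5 and 36.3, at 0.8 to 2 Mb 90 and 96.7, and at 2 to 5 Mb 57.7 and 61.3. The 1-Mb window from 17000001 to 18000000, with 94 and 100 summits, was the fullest of the scaffold in both libraries. When the change was sought only within 2 Mb of the boundary, the best position stayed at 15870000 in replicate 1. Positions up to 16600000 were within 2 units there. In replicate 2 the best position moved to 16600000, and its 2-unit range, from 16580000 to 16610000, left out 15870000. Peaks of the intermediate zone resembled those of the segment. At the genome-wide background stood 61.5% and 69.0% of the 26 and 29 peaks there, against 3.70% and 4.31% at 0.8 to 2 Mb, and their medians were 20.5 and 19 fragments, against 39.5 and 39.5. The median background of the peaks was still the genome-wide one at 0 to 0.8 Mb, and 7.04 and 6.94 fragments at 0.8 to 2 Mb. The first 2 peaks outside the boundary already stood above it, at 4.28 and 4.30 fragments in replicate 1 and 4.80 and 4.78 in replicate 2. Zones this wide do not place the rise in background more closely. A logistic curve fitted within 5 Mb had its centre 400 kb outside the boundary in replicate 1 and 350 kb outside in replicate 2. It passed from 10% to 90% of the change over 1200 kb in replicate 1 and 1500 kb in replicate 2. Lengths of 600 to 1500 kb and 800 to 2000 kb were within 2 log-likelihood units. Fitted within 2 Mb, the mean length was 2250 kb, so the length is known only roughly. The curve can only rise, while the density fell again beyond 2 Mb, so its length is not a measure of sharpness alone.

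The listed centromeres offered edges to set beside this boundary. On the 6 scaffolds with at least 5 Mb of arm beside a centromere, 10 edges were measured in the same way. The lengths differed widely between the libraries, with medians over the 10 edges of 550 kb in replicate 1 and 5 kb in replicate 2. The means of the libraries had a median of 327.5 kb and went from 5 kb, the shortest length tried, at the left edge on scaffold 3 (14379053) and the right edge on scaffold 4 (35424698), to 3500 kb, at the left edge on scaffold 1 (27141008). By best-fitting length, the boundary on scaffold 9 was longer than 9 of the 10 edges in each library. The exception was the left edge on scaffold 1, at 4000 kb in replicate 2, the longest length tried. The ranges within 2 log-likelihood units do not settle this order for every edge. They overlapped those of the boundary in both libraries at the right edges on scaffolds 1 and 12 and the left edge on scaffold 4. At both edges on scaffold 5 they overlapped in replicate 1 only. At both edges on scaffold 3 and the right edges on scaffolds 4 and 10 they were shorter without overlap. In the first 0.4 Mb outside, the boundary had 36.3 ± 1.77 summits per Mb (SD, n = 2), within the 17.5 to 75 of the 10 edges. At 1.2 to 1.6 Mb it had 96.3 ± 8.84 and at 1.6 to 2 Mb 112.5 ± 3.54, above all 10 edges, which reached at most 63.8 and 82.5. The boundary was placed with the peaks themselves and the centromere edges were not, so the values are set side by side without a test.

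**Figure D5:**
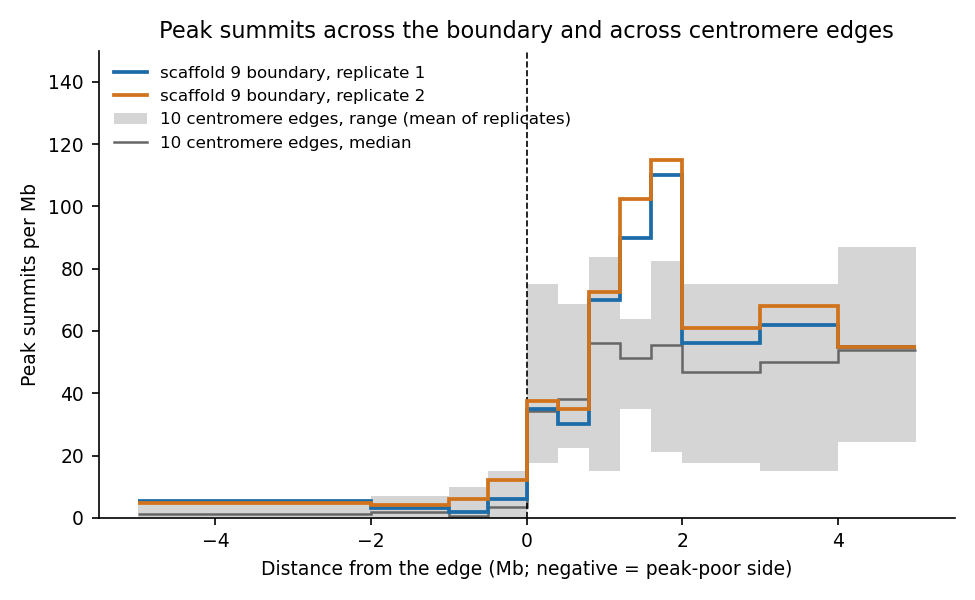
Peak summits per Mb by distance from the boundary of the segment in each replicate, with 10 centromere edges of 6 other scaffolds as the median (line) and range (grey), each edge as the mean of the replicates. Bins are 0.4 Mb wide from 0 to 2 Mb outside and wider elsewhere. The boundary of scaffold 9 has 36.3 summits per Mb in its first 0.4 Mb and 112.5 at 1.6 to 2 Mb.

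Set beside the centromere intervals, the segment was poor in peaks but less so. It had 6.59 summits per Mb as the mean of the libraries, where the 8 centromeres had 1.77 to 3.03 and the 13 other scaffolds without a listed centromere 56.9 to 72.8. Windows of 100 kb without a summit made up 61.5% of the segment, 81.1 to 90.7% of the centromeres and at most 7.2% of the other scaffolds. The median width, 277 bp, lay above the 238 to 274 bp of the centromeres and below the 356 to 394 bp of the scaffolds. The share of peaks at the genome-wide background, 74.6%, lay within the range of the centromeres (38.3 to 84.0%) and above that of the scaffolds (10.8 to 15.6%). The shared part of the peaks, 76.2%, was above all 8 centromeres (40.9 to 63.4%). It lay at the low end of the range of the scaffolds (75.7 to 82.1%), of which 1 was lower and 12 were higher. Over the 8 centromeres together, 68% and 54.7% of the peaks of 16 to 25 fragments were shared, against 68.8% and 64.1% in the segment. At 26 to 40 fragments the shares were 90.6% and 87.5%, against 93.3% and 78.9%, and at 11 to 15 they were 31.1% and 19.7%, against 84.6% and 50%. All peaks of 41 or more fragments were shared in both. Peaks of 41 or more fragments made up 20.8% and 16.2% of the peaks of the segment, 3.98% and 3.33% of those in the centromeres and 37.9% and 39.4% of those on the other scaffolds. Each of these is 1 segment beside 8 intervals or 13 scaffolds, as a description without a test. The rest of scaffold 9, with 65.5 summits per Mb, a median width of 382.5 bp and 13.7% of peaks at the genome-wide background, lay within the ranges of the 13 scaffolds.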

How the data were processed

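Peaks come from MACS 3.0.0, which the authors ran per library with a q threshold of 0.01 on uniquely placed, deduplicated reads (SAMtools 1.16.1, mapping quality 30). Alignment to their assembly was by BWA-MEM 0.7.17 after fastp 0.20.0. Genome size setting, read shift or extension and any control are details not given in the sources used here. Deposited fold enrichment values are ratios of fragments to modelled background at the summit, -log10 p and -log10 q are deposited for each summit too, and the deposited score, a multiple of -log10 q, was not used. The lowest -log10 q was 2.00 in both lists. Peak lists hold no read totals, so sequencing depth is unknown here.

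Fragments and background were solved from (fragments + 1) / (background + 1) and the Poisson p-value; in 100% of peaks of either library the fragments came out whole, judged by a match to -log10 p to 0.0001 of its size. A background within 1% of the genome-wide value counted as equal to it. Positions count from 1 on the authors' scaffolds, whose sizes and centromere intervals are those of the study's supplement. Values were computed per library, then averaged (SD, n = 2). The logistic lengths were sought on a fixed set of lengths. The segment, the lists of regions and the measures were chosen with earlier results of these data known. Named regions followed a rule: the fullest and emptiest windows, the longest empty stretches, the largest islands in both libraries, the peaks of largest fold or width that both libraries shared, and the peaks nearest to the boundary. The measures were tested on simulated lists. Alternatives were a -log10 q of at least 5, shared peaks only, midpoints, shifted edges, other distances and overlaps, and each library alone. Scripts ran in Python 3.11.15 with matplotlib 3.10.9, scipy 1.17.1, pandas 2.3.3 and numpy 2.4.6.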

Additional observations from a re-analysis of the deposited data

How the results depend on the processing

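Each difference between the segment and the rest was taken within a library. These differences are thus paired by library, but with only 2 libraries no test was made of them. The samples form 1 group, with no other group to compare. With the inner boundary moved 500 kb outward, the ratio of densities was 0.112, the ratio of median distances 5.25 and the difference of median widths -101 bp, which was -94 bp with both edges moved 500 kb inward. With a -log10 q of at least 5, the ratio of distances was 7.98, the width difference -128 bp, the difference in sharing -13.0 percentage points and that of median fragments -16. With only peaks shared between the libraries, the density ratio was 0.0934, the ratio of distances 7.74, the width difference -114.5 bp, that of fragments -16.5 and the mean number of islands 4. With at least 30 fragments at the summit, chosen after the values were seen, the density ratio was 0.0491, the ratio of distances 15.2, the width difference -84 bp, the difference in sharing -2.01 points, in peaks at the genome-wide background 45.6 points, in peaks with a neighbour within 2 kb -14.2 points and in median fold 2.63, with 2 islands. The difference of median fragments then turned to 0.5, a limit that by construction removes the weak peaks. With neighbours within 5 kb the difference in clustering was -6.72 points and negative in both libraries. Within 2 Mb of the boundary, the change of density averaged 16.2 Mb and the fitted length 2250 kb. The causes of these moves were not tested. The differences in clustering within 2 kb and in median fold had opposite signs in the 2 libraries. In the segment, 1 peak is about 1% of the peaks of a library.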

Other observations

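The rest of scaffold 9 was itself uneven. By the mean of both libraries, its fullest full window after that from 17000001 to 18000000 was the one from 22000001 to 23000000, with 86 and 90 summits in replicates 1 and 2, and its emptiest were those from 36000001 to 37000000, with 42 and 45, and from 16000001 to 17000000, with 44 and 47. In these 3 windows, 3.49% and 5.56%, 33.3% and 28.9%, and 36.4% and 38.3% of the peaks stood at the genome-wide background. These windows were chosen after their values were seen.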
